A study of Mus musculus with 9 samples.

Results

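Mucolipidosis type IV (MLIV) is a lysosomal storage disease caused by loss of mucolipin-1, the cation channel of late endosomes and lysosomes that the gene *Mcoln1* encodes. Mucolipin-1 lets calcium, iron and zinc out of the lysosome and takes part in membrane trafficking and in the control of lysosomal and autophagy genes. Microglia, the resident macrophages of the brain, take up myelin, debris and dying cells and depend on lysosomes to degrade them. In several mouse models of neurodegeneration they switch from a resting profile to the disease-associated profile, in which *Apoe*, *Cst7*, *Itgax* and related genes are higher.

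RNA sequencing of microglia from C57BL/6 mice was divided by the *Mcoln1* read count itself, so libraries were chosen by that measured value, whatever their label. The 4 libraries with fewer than 50 *Mcoln1* counts are called libraries without *Mcoln1*, and the 5 with more than 500 are called libraries with *Mcoln1*, of 9 libraries in all. The libraries without *Mcoln1* were the 3 labelled MLIV (*Mcoln1*-/-, bred by crossing heterozygotes) and 1 that is labelled as a control, the library labelled WT replicate 3. The libraries with *Mcoln1* were WT replicates 1 and 2 and the 3 labelled FD. The FD mice carry a mutation of *Gla*, the α-galactosidase A gene affected in Fabry disease, and are kept as a homozygous line. The cells had been sorted as live CX3CR1+ CD45+ CD11b+ cells, and the series title gives an age of 4 months whereas the methods of the study state a younger one.

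*Mcoln1* (mm10, chromosome 8, 3500519 to 3515231, plus strand) had 0, 0 and 18 counts in MLIV replicates 1, 2 and 3 and 2 counts in the library labelled WT replicate 3, against 1082 and 1517 in WT replicates 1 and 2 and 1442, 1227 and 892 in FD replicates 1, 2 and 3. The values on each side of the division were therefore 18 and 892. These counts chose the libraries and were not tested. The regrouping puts a library labelled control with the mutants, and the sources used here do not say how its *Mcoln1* count came about. For that reason the 4 against 5 comparison is given here only as a description, without p-values. Every test compares the 3 MLIV libraries with the 5 libraries with *Mcoln1*, leaving the library labelled WT replicate 3 out of the fit, so that its values for all other genes can be read afterwards.

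Totals were 33624404 to 37801159 counts in the 4 libraries without *Mcoln1* and 22772260 to 33255744 in the 5 with it. Levels are given as CPM, counts per 1000000 after TMM scaling of the library sizes. The TMM factors were 0.919 to 0.948 without and 0.958 to 1.169 with *Mcoln1*. Depth and scaling factor thus followed the same division as *Mcoln1*, and their part in the differences was not tested. FD replicate 3 had a count for 12032 genes and WT replicate 1 for 22932, and the others lay between them. Microglia were recognisable in every library: *P2ry12*, a purinergic receptor of resting microglia, was at 2421, 2093 and 2008 CPM in MLIV and 2122 CPM in the library labelled WT replicate 3, against 1870 to 2807 CPM in the 5 libraries with *Mcoln1*. *Gla*, mutated in FD, was at 11.7, 17.5 and 14.01 CPM in MLIV and 10.8 CPM in the library labelled WT replicate 3, against 4.47 and 8.20 CPM in WT replicates 1 and 2 and 4.85, 4.79 and 4.57 CPM in FD, so its count does not tell FD from WT replicate 1. *Xist*, transcribed from the inactive X chromosome, was at 1362 CPM or more in the FD libraries and in MLIV replicate 1 and at 1030 CPM in MLIV replicate 2, against 4.02 CPM or less in the others. MLIV replicate 2 also had 26.6 CPM of the Y-linked gene *Ddx3y*. Transcripts of both sexes thus stood on each side of the division, and only autosomal genes were analysed. The FD genotype is given as male in the study, against the *Xist* levels above, and its methods state more mice per condition than there are libraries per group. The sources used here do not tie libraries to separate animals, and the tests therefore rest on library-to-library spread, which could be technical.

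The fit covered 14662 autosomal genes besides *Mcoln1*. In MLIV, 226 genes (1.54% of those tested) were upregulated and 46 (0.314%) were downregulated, 1.86% together, at an adjusted p below 0.05 with a more than 2-fold change (edgeR quasi-likelihood test, Benjamini-Hochberg adjustment over all genes). With any fold the numbers were 599 (4.09%) and 199 (1.36%). The median log2 fold change of all genes was -0.05. With library totals in place of TMM factors that median was -0.20, and the called genes were 166 higher and 119 lower, so the surplus of upregulated genes depends in part on the scaling. The downregulated count rested on single libraries: it was 9 without MLIV replicate 1, 10 without MLIV replicate 2, 29 without MLIV replicate 3, 20 without FD replicate 1, 85 without WT replicate 2 and 104 without FD replicate 3, beside 170, 176, 207, 226, 236 and 314 upregulated genes. With any fold there were 264 higher and 26 lower without MLIV replicate 1, and 1528 higher and 608 lower without FD replicate 3. When all 9 libraries were fitted as labelled, with the library labelled WT replicate 3 among WT, no gene passed in the edgeR test (1814 at an unadjusted p below 0.05), and DESeq2 called 102 (2205 at an unadjusted p below 0.05). Both fits set MLIV against all WT and FD libraries pooled as 1 group. They are not the comparison of MLIV with WT alone that the study reported.

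In the description of 4 against 5 libraries, the CPM ranges did not overlap for 1425 genes that were higher (9.72%) and 763 that were lower (5.2%) without *Mcoln1*. With a difference of mean log2 CPM above 1 as well, 405 genes were separated upwards (2.76%) and 110 downwards (0.75%), 3.51% together; with library totals they were 275 upwards and 224 downwards. Of these 515 genes, 254 were also called in the fit of MLIV against the 5, and 243 did not pass its adjusted p with any fold. A further 18 called genes were not separated once the library labelled WT replicate 3 joined the MLIV side.

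The 5 libraries with *Mcoln1* helped to choose the called genes, so shares over all genes are not a like baseline for them. The library labelled WT replicate 3 had no part in that choice. It lay above all 5 libraries with *Mcoln1* for 221 of the 226 genes called higher (97.8%), against 21% of all genes tested, and below all 5 for 42 of the 46 genes called lower (91.3%), against 15.1%. Where the mean of the 5 is set to 0 and the mean of MLIV to 1 on the log2 scale, its median position was 0.97 for the genes called higher (quartiles 0.89 and 1.04) and 0.85 for those called lower (quartiles 0.66 and 1.05). It fell within the MLIV range for 126 of the 226 upregulated genes, below it for 68 and above it for 32. Across the 14662 genes its log2 CPM correlated with the MLIV libraries at 0.981 to 0.985, with WT replicates 1 and 2 at 0.959 to 0.979 and with FD at 0.921 to 0.972; these correlations are over genes, which are not replicates. MLIV libraries correlated among themselves at 0.976 to 0.982, and the 5 libraries with *Mcoln1* among themselves at 0.923 to 0.98. WT replicate 2 correlated at 0.979 with the library labelled WT replicate 3 and at 0.966 with WT replicate 1. FD replicate 3 correlated at only 0.913 to 0.939 with the other libraries. MLIV libraries correlated with the 5 libraries with *Mcoln1* at 0.913 to 0.976. The library labelled WT replicate 3 thus correlated more with each MLIV library than with any library with *Mcoln1*, though WT replicate 2 was close.

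**Figure D1:**
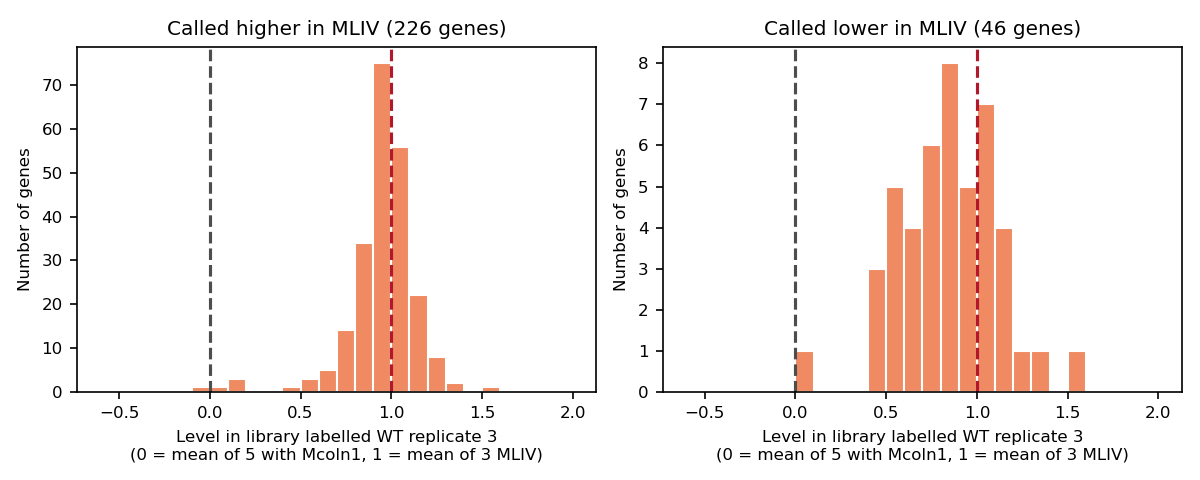
Number of genes (vertical axis) by the level of the library labelled WT replicate 3 (horizontal axis, log2 scale set so that 0 is the mean of the 5 libraries with *Mcoln1* and 1 the mean of the 3 MLIV libraries), for genes called higher and called lower in MLIV. This library was not in the fit that chose the genes, and most genes lie near 1, with medians of 0.97 and 0.85.

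The exceptions among the upregulated genes were *Fn1*, *Mlph*, *Hist1h2ak*, *Vaultrc5* and *Ncapd2*, and among the downregulated genes *Zfp867*, *Lama3*, *Cdk14* and *Trim43b*. *Fn1*, which encodes the matrix protein fibronectin and is carried by monocytes and some macrophages, was at 59.6, 34.3 and 29.4 CPM in MLIV and 10.4 CPM in the library labelled WT replicate 3, against 17.1, 10.3, 3.94, 7.31 and 10.8 CPM in the libraries with *Mcoln1*. *Mlph*, a melanosome transport adaptor, was at 97.3, 112.3 and 106.1 CPM in MLIV and at 48.8 CPM in that library, against 37.3 to 70.9 CPM. For all these exceptions the library labelled WT replicate 3 lay within the range of the libraries with *Mcoln1*. For *Lama3* and *Trim43b* only WT replicate 2, at 0.0584 CPM, was below it (0.341 and 0.284 CPM). For these 2 genes its positions on the scale above were 0.84 and 0.79, nearer the mean of MLIV.

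**Figure D2:**
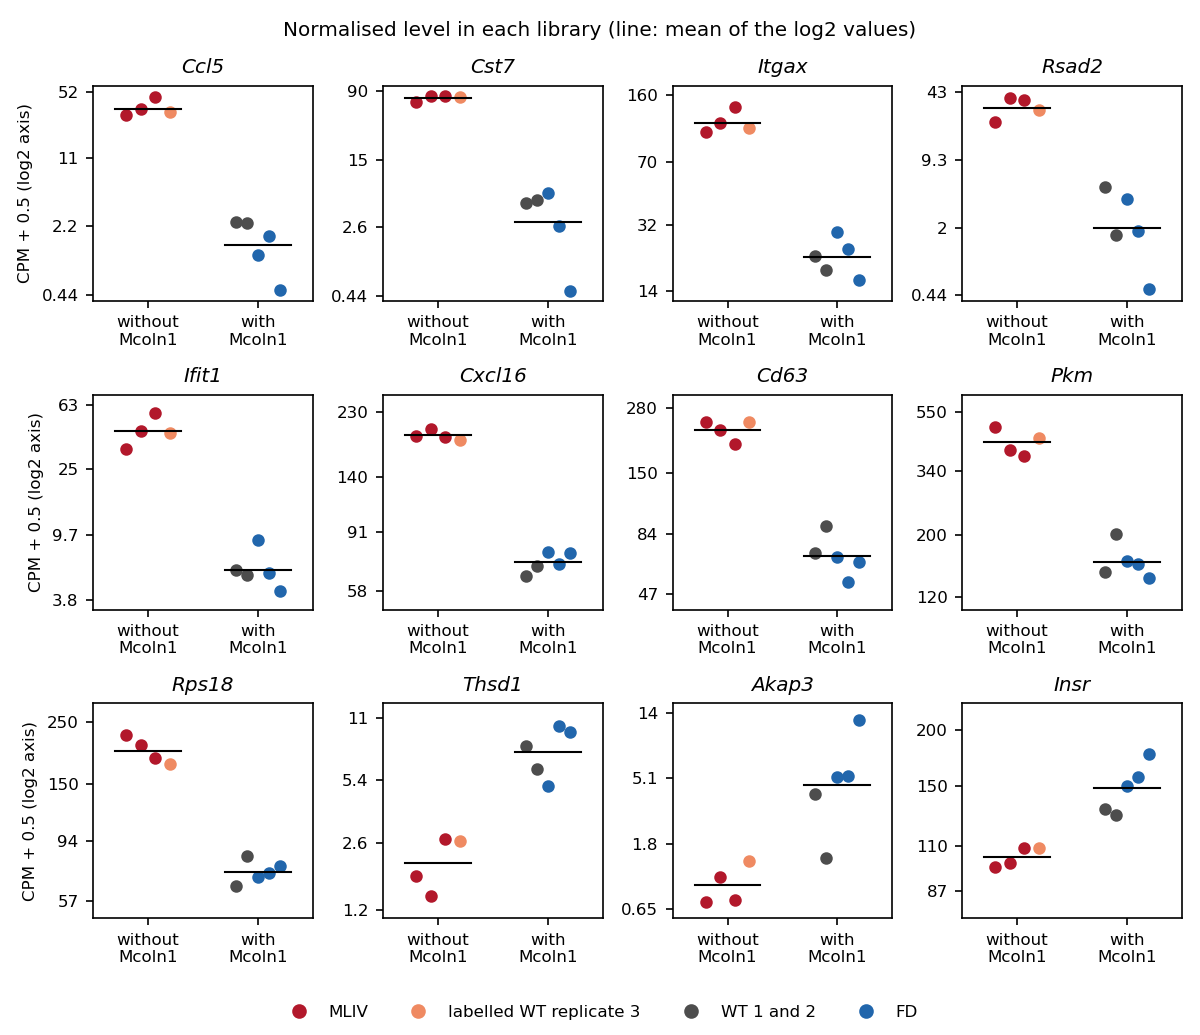
CPM + 0.5 in each library on a log2 axis for 12 genes. In each panel the 4 libraries without *Mcoln1* (3 MLIV and the library labelled WT replicate 3) stand left of the 5 with it, and the horizontal lines mark the mean of the log2 values. The ranges do not touch for any of these genes, but for *Akap3* the nearest values are close. They are 0.882 CPM in the library labelled WT replicate 3 and 0.934 CPM in WT replicate 2.

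Chemokine, complement and interferon genes were among the 10 largest increases. *Ccl5* (chromosome 11, 83525779 to 83530518), a chemokine that attracts T cells and monocytes, was at 29.5, 33.8 and 45.2 CPM in MLIV and 31.5 CPM in the library labelled WT replicate 3, against 1.92, 1.87, 0.626, 1.24 and 0 CPM in WT replicates 1 and 2 and FD replicates 1 to 3. Its log2 fold change in MLIV was 4.97 ± 0.79 (SE; adjusted p = 0.00709), and the adjusted p was 0.0545 without MLIV replicate 2. All 4 libraries without *Mcoln1* lay far above the highest of the others.

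*Cst7*, an inhibitor of cathepsins that marks disease-associated microglia, was at 68.4, 78.9 and 78.7 CPM in MLIV and 76.6 CPM in the library labelled WT replicate 3, against 4.40, 4.79, 5.94, 2.22 and 0 CPM (log2 fold change 4.41 ± 0.86, adjusted p = 0.0257; up to 0.155 without one MLIV library, 0.0789 with no count filter and 0.0655 with the replicate block). *Lox*, a collagen and elastin cross-linking enzyme, was at 42.9, 35.5 and 49.3 CPM in MLIV and 33.9 CPM in that library, against 0 to 3.68 CPM (adjusted p = 0.0142; up to 0.104 without one MLIV library, 0.0698 with no count filter and 0.0521 with the replicate block). *Chst2*, a sulfotransferase that acts on carbohydrate chains of glycoproteins, was at 99.8, 106.0 and 84.7 CPM in MLIV and 90.7 CPM in that library, against 14.4, 12.5, 5.32, 6.72 and 8.0 CPM (log2 fold change 3.34 ± 0.30, adjusted p = 9.57e-05). *C3*, the central complement component, was at 65.5, 86.8 and 78.6 CPM in MLIV and 51.0 CPM in that library, against 0.739 to 14.2 CPM (adjusted p = 0.03; up to 0.167 without single MLIV or FD libraries, 0.107 with no count filter and 0.0635 with the replicate block). None of these genes overlapped between the 4 and the 5 libraries. The antiviral gene *Rsad2* and the interferon-induced *Oasl1* were also among the 10 highest, with log2 fold changes of 3.87 ± 0.92 and 2.95 ± 0.75. Both were close to the threshold (adjusted p = 0.0447 and 0.0466) and lost the call in 9 and 10 of the alternative fits.

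*Lcn2*, an iron-siderophore binding protein abundant in neutrophils, was at 13.4, 12.99 and 20.8 CPM in MLIV and 5.01 CPM in the library labelled WT replicate 3, against 0.0672 to 3.27 CPM (adjusted p = 0.0323, lost in 9 of the alternative fits). It was the only one of 11 tested neutrophil markers to pass in edgeR (6 were higher at an unadjusted p below 0.05); DESeq2 called 2. The 12 markers in the list summed to 161 to 301 CPM in MLIV and 57.4 CPM in the library labelled WT replicate 3, against 1.41 to 59.8 CPM in the libraries with *Mcoln1*. *S100a9*, abundant in neutrophils, was at 53.9, 49.5 and 90.3 CPM in MLIV and 17.1 CPM in that library, against 1.28 to 18.2 CPM (adjusted p = 0.0656, but past 0.05 in 6 alternative fits, with 0.00244 in DESeq2 and 0.000157 without WT replicate 2). In bulk RNA a few more cells of one type cannot be told apart from more RNA per cell, and the part of neutrophils in *Lcn2* was not tested.

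Monocyte markers had a sum of 97.0 to 120.6 CPM in MLIV and 49.0 CPM in the library labelled WT replicate 3, against 35.9 to 70.8 CPM. Of 10 tested markers *Ms4a4c* and *Fn1* rose (20%, beside 4.09% of all genes). No other monocyte marker had an unadjusted p below 0.05 in edgeR. Border macrophage markers summed to 599.4 to 615.2 CPM in MLIV and 1103 CPM in the library labelled WT replicate 3, against 622 to 892 CPM. Among them *Stab1*, a scavenger receptor, fell in MLIV (413, 376 and 321 CPM, against 511 to 636 CPM; log2 fold change -0.66 ± 0.12, adjusted p = 0.00797, 0.0661 at most without MLIV replicate 2 or 3), but was at 568.5 CPM in the library labelled WT replicate 3. That library had neutrophil and monocyte sums within the range of the libraries with *Mcoln1* and the highest border macrophage sum of all. For the genes called higher its median position on the scale above was 0.97, and it lay below the MLIV range for 68 of 226. The part of these cell types in the called genes was not tested. No marker of T and NK cells, B cells, astrocytes, oligodendrocytes, neurons or endothelial and mural cells passed in edgeR. At an unadjusted p below 0.05 there were 1 lower astrocyte marker, 1 higher oligodendrocyte marker and 2 higher and 2 lower endothelial and mural markers, and DESeq2 called 1 astrocyte and 2 endothelial and mural markers lower and 1 oligodendrocyte marker higher. Red cell markers were too low to test.

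**Figure D3:**
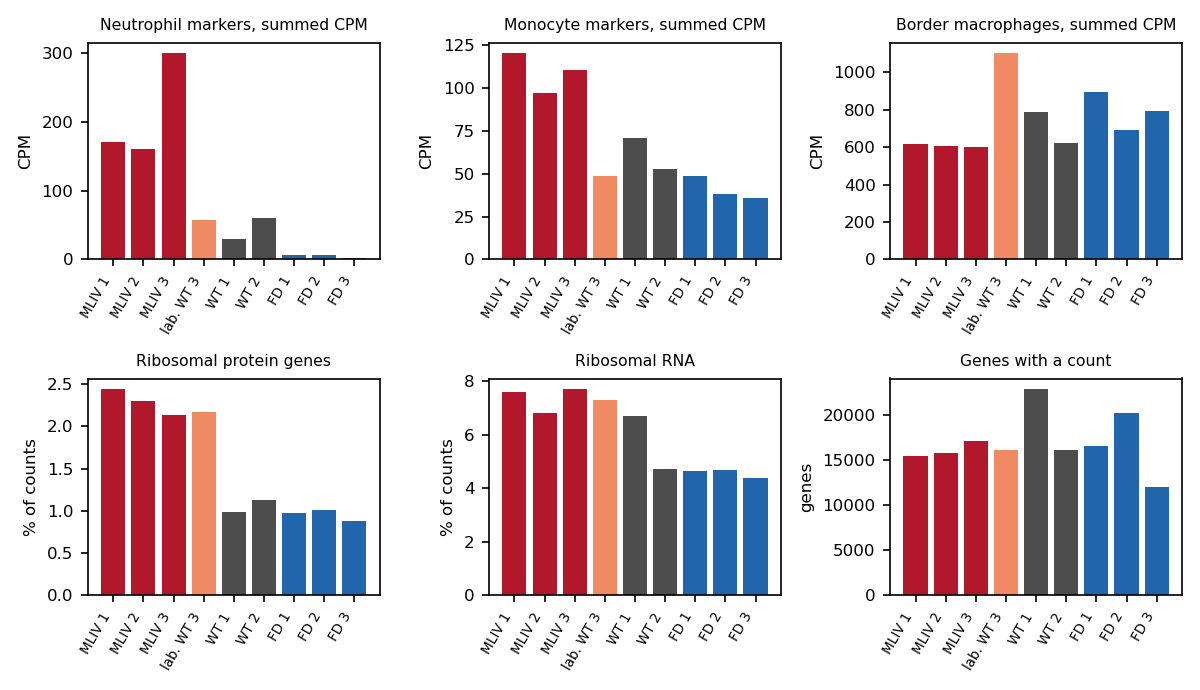
Bars show, for each library, the summed CPM of neutrophil, monocyte and border macrophage markers, the share of counts in ribosomal protein genes and in ribosomal RNA, and the number of genes with a count. The 4 libraries without *Mcoln1* are at the left; neutrophil sums are highest in MLIV (161 to 301 CPM), and the ribosomal protein share is above 2% in all 4 libraries without *Mcoln1*.

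Genes of the disease-associated microglia profile rose as a group. Of 37 members tested, 31 were higher and none lower in MLIV at any fold, 29 were separated in the 4 against 5 description, and the median log2 fold change was 1.34. Across libraries the median level relative to the mean of the 5 was 1.41, 1.57 and 1.31 (log2) in MLIV and 1.51 in the library labelled WT replicate 3, against -0.09 to 0.23 in the libraries with *Mcoln1*. The count was 25 to 33 when single libraries were left out.

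*Itgax* (CD11c, an integrin of activated microglia and dendritic cells; chromosome 7, 128129568 to 128150657) was at 101.3, 112.3 and 137.4 CPM in MLIV and 105.9 CPM in the library labelled WT replicate 3, against 21.1, 17.7, 28.9, 23.3 and 15.7 CPM (log2 fold change 2.43 ± 0.19, adjusted p = 8.47e-05). *Clec7a*, the β-glucan receptor dectin-1, was at 147 to 157 CPM in MLIV and 159.9 CPM in that library, against 18.04 to 40.7 CPM. *Axl*, a receptor for apoptotic cells, was at 265, 311 and 306 CPM in MLIV and 273 CPM in that library, against 27.3 to 64.5 CPM (log2 fold change 2.83 ± 0.28, adjusted p = 0.000273). *Apoe*, the lipid carrier of brain lipoproteins, was at 3726, 4209 and 5128 CPM in MLIV and 6785 CPM in that library, against 534 to 1344 CPM (log2 fold change 2.17 ± 0.26). For *Apoe* the library labelled WT replicate 3 was the highest of all 9.

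*Cd22*, a sialic acid receptor that restrains phagocytosis, *Lyz2* (lysozyme) and *Cd52*, a small surface glycoprotein, rose by 1.93 ± 0.16, 1.65 ± 0.15 and 1.44 ± 0.13 on the log2 scale. *Igf1*, a growth factor, was at 31.2, 36.8 and 28.3 CPM in MLIV and 39.4 CPM in the library labelled WT replicate 3, against 2.54 to 10.4 CPM (adjusted p = 0.00294). *Tyrobp*, the signalling adaptor DAP12, changed by 1.16 ± 0.15 and its partner receptor *Trem2* by 0.59 ± 0.14 (adjusted p = 0.000797 and 0.0303). *Trem2* lost the call in 5 alternative fits, with an adjusted p of up to 0.171. The 6 members that did not pass were *Gpnmb*, *Cadm1*, *Ccl4*, *Lgals3*, *Ch25h* and *Ccl6*. *Gpnmb*, a lysosomal glycoprotein of lipid-laden macrophages, was nonetheless at 11.9 to 14.6 CPM in MLIV and 17.5 CPM in the library labelled WT replicate 3, against 0 to 3.31 CPM, without overlap (adjusted p = 0.101; 0.0128 with DESeq2).

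For genes of resting microglia the calls depended on the tool and the scaling. Of 34 tested, 3 were higher and 0 lower in MLIV with edgeR (7 in each direction at an unadjusted p below 0.05), with a median log2 fold change of 0.00. DESeq2 called 5 higher and 7 lower, and with library totals instead of TMM factors 1 was higher and 7 were lower. *Cst3*, *C1qa* and *Sparc* were the members that rose, by 0.72 ± 0.15, 0.77 ± 0.17 and 0.52 ± 0.13 on the log2 scale; without single libraries 0 to 6 members were higher and 0 or 1 lower. *Cx3cr1*, the fractalkine receptor used for the sort, was at 4220, 3739 and 3291 CPM in MLIV and 3833 CPM in the library labelled WT replicate 3, against 4187 to 5936 CPM (log2 fold change -0.39 ± 0.13, adjusted p = 0.126; 0.00992 with DESeq2 and 0.0146 with library totals).

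**Figure D4:**
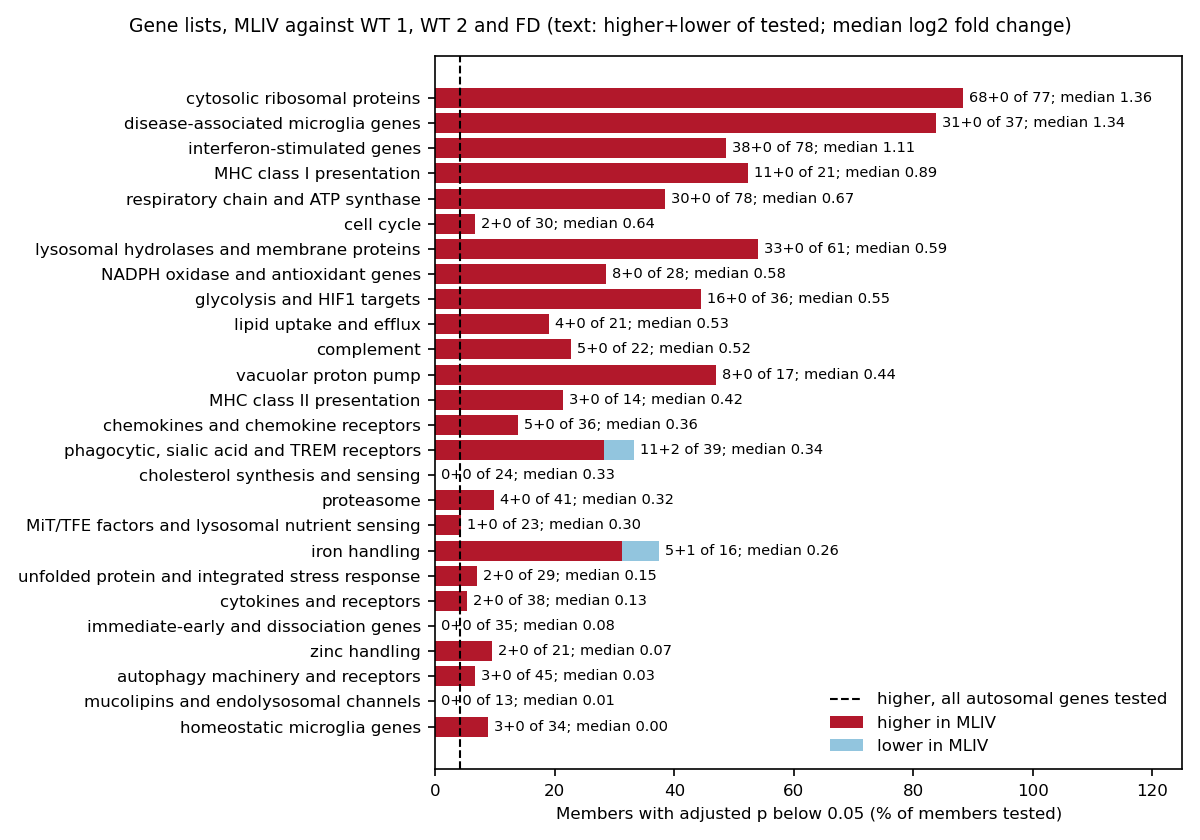
Bars give the percentage of tested members of each gene list with an adjusted p below 0.05 in MLIV against WT replicates 1 and 2 and FD (red, higher in MLIV; blue, lower), with the counts and the median log2 fold change printed beside them. The dashed line marks the 4.09% of all autosomal genes that were higher; ribosomal protein genes (68 of 77) and disease-associated microglia genes (31 of 37) have the longest bars.

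Interferon-stimulated genes are switched on by type I interferons, and many carry the interferon-stimulated response element (ISRE) in their promoters. To show this element in members that rose, stretches before the RefSeq start sites of 3 *Ifit* genes (GRCm38.p6, plus strand) are printed with matches to the motif searched (GAAA, any 2 bases, then GAAA, on either strand) in capitals:
Ifit1 (chr19:34640765-34640833): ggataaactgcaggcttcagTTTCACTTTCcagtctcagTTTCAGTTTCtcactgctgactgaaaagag
Ifit3b (chr19:34607749-34607832): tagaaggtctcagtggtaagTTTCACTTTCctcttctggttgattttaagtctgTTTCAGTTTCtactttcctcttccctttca
Ifit3 (chr19:34583353-34583436): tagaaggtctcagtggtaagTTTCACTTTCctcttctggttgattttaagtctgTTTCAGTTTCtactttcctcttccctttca
Each holds 2 matches, which begin 104 and 85 bases before the start site in *Ifit1*, 188 and 154 in *Ifit3b* and 156 and 122 in *Ifit3*. The printed stretches of *Ifit3* and *Ifit3b* are the same letter for letter, and these neighbouring genes are near-identical copies, so reads may have been divided between them. In windows of 300 bases around the start sites (250 before and 50 after), the motif occurred in 406 of 10884 tested genes with a promoter in the RefSeq table (3.73%), in 25 of 162 genes called higher (15.4%), in 1 of 31 called lower (3.23%) and in 31 of 57 interferon-stimulated genes (54.4%). Among interferon-stimulated genes that rose it was found in 15 of 27 (55.6%). A match is a description of the letters only.

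Of 78 interferon-stimulated genes tested, 38 were higher and none lower in MLIV (49 and 1 with DESeq2), 37 were separated upwards 4 against 5, and the median log2 fold change was 1.11. Without MLIV replicate 2 the number was 21 and without MLIV replicate 3 it was 25. *Ifit1*, which binds foreign RNA, was at 32.8, 42.9 and 55.4 CPM in MLIV and 41.4 CPM in the library labelled WT replicate 3, against 5.33, 4.93, 8.57, 5.09 and 3.83 CPM (log2 fold change 2.96 ± 0.27, adjusted p = 8.98e-05). *Ifit3* was at 106.9, 120.1 and 109.8 CPM in MLIV and 103.0 CPM in that library, against 12.7, 16.6, 19.02, 12.8 and 3.16 CPM. *Ifit2*, of the same family, was at 100.4 to 142.3 CPM in MLIV and 119.2 CPM in that library, against 11.1 to 29.97 CPM. The levels of all 3 genes were several times higher in each library without *Mcoln1* than in any library with it.

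*Ifitm3*, which blocks entry of viruses from endosomes, was at 58.4, 68.8 and 80.6 CPM in MLIV and 73.5 CPM in the library labelled WT replicate 3, against 10.5 to 18.8 CPM (log2 fold change 2.29 ± 0.22). *Lgals3bp*, a secreted glycoprotein induced by interferon, was at 871, 994 and 848 CPM in MLIV and 793 CPM in that library, against 105, 233, 193, 161 and 124 CPM (log2 fold change 2.45 ± 0.22, adjusted p = 9.38e-05). Within the libraries with *Mcoln1*, FD replicate 1 had the highest list median, at 0.51 (log2) relative to the mean of the 5, against 1.07 to 1.34 in the 4 libraries without *Mcoln1*.

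Genes of antigen presentation by MHC class I, which displays peptides from inside the cell, rose in 11 of 21 tested cases and none fell (7 without MLIV replicate 2). *H2-K1* was at 1034, 1194 and 1090 CPM in MLIV and 890 CPM in the library labelled WT replicate 3, against 230, 337, 413, 294 and 309 CPM (log2 fold change 1.79 ± 0.15, adjusted p = 8.47e-05). The light chain *B2m* was at 2764 to 2976 CPM in MLIV and 2797 CPM in that library, against 496 to 1167 CPM. *H2-D1* and *H2-Q4* changed by 1.99 ± 0.20 and 1.69 ± 0.21, and since these genes are alike in sequence their reads may be shared. *Psmb8* and *Psme1*, parts of the immunoproteasome, rose by 0.89 ± 0.17 and 0.86 ± 0.15, whereas 37 of 41 proteasome genes did not pass; the number that passed was 4, but 21 without FD replicate 3, 2 without MLIV replicate 1 and 1 without MLIV replicate 2. Of 14 MHC class II genes 3 rose, *Ctss*, *Ifi30* and *H2-Oa*; *Cd86*, a co-stimulatory ligand, was at 203 to 214 CPM in MLIV and 251 CPM in that library, against 137 to 178 CPM (adjusted p = 0.125; 0.0195 with DESeq2).

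**Figure D5:**
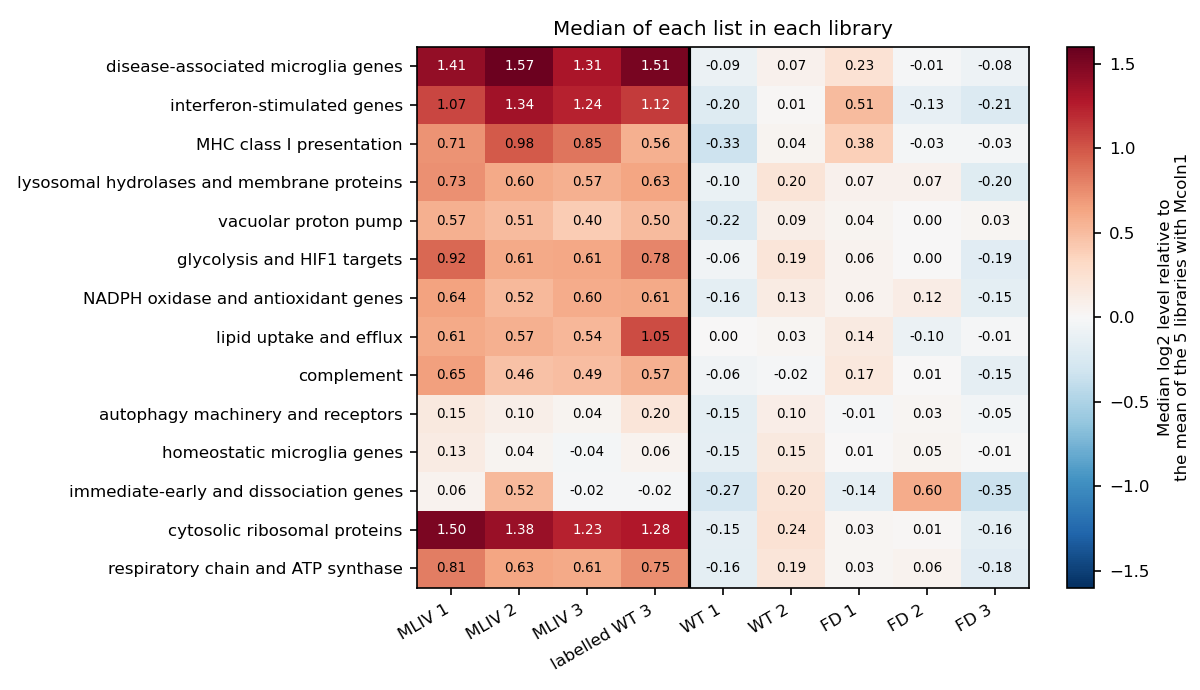
Median log2 level of each gene list (rows) in each library (columns), relative to the mean of the 5 libraries with *Mcoln1*; red is higher and blue lower, and the value is printed in each cell. The black line divides the 4 libraries without *Mcoln1*, at the left, from the 5 with it. The disease-associated list is at 1.31 to 1.57 in the 4 libraries without *Mcoln1*, and the homeostatic list at -0.04 to 0.13.

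The lysosome is where mucolipin-1 acts. Of 61 hydrolases and lysosomal membrane proteins tested, 33 were higher and none lower in MLIV, with a median log2 fold change of 0.59; 11 of them were separated 4 against 5 with the fold threshold. The number was 15 without MLIV replicate 1 and 18 without MLIV replicate 2. *Cd63* (chromosome 10, 128908919 to 128912818), a tetraspanin of late endosomes, was at 244, 227 and 198 CPM in MLIV and 243.5 CPM in the library labelled WT replicate 3, against 69.5, 90.1, 66.7, 52.2 and 63.6 CPM (log2 fold change 1.69 ± 0.16, adjusted p = 9.38e-05). The cathepsins *Ctsz*, *Ctsl* and *Ctsd*, proteases of the lysosome, rose by 0.98 ± 0.10, 1.12 ± 0.12 and 1.01 ± 0.17. *Ctsd* was at 10980, 9937 and 8933 CPM in MLIV and 11120 CPM in the library labelled WT replicate 3, against 3613 to 6414 CPM. *Gm2a*, the activator protein for ganglioside GM2 breakdown, and *Lamp1*, an abundant membrane glycoprotein, changed by 1.04 ± 0.12 and 1.06 ± 0.16.

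Many lysosomal genes carry the CLEAR element, an E-box that TFEB and its relatives bind. It was searched as TCACGTGA, which reads the same on both strands, and is shown in capitals for the member that rose and held it nearest the top of the list by p (RefSeq, GRCm38.p6, minus strand; the match begins 99 bases before the start site):
Ctsd (chr7:142387908-142387937): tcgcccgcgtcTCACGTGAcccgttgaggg
The motif occurred in 214 of 10884 tested genes (1.97%), 5 of 44 lysosomal genes (11.4%) and 2 of the 24 lysosomal genes that rose (8.33%), against 2 of 162 genes called higher (1.23%). *Tfeb* itself was at 50.1, 57.4 and 54.0 CPM in MLIV and 49.3 CPM in the library labelled WT replicate 3, against 33.7 to 50.4 CPM (adjusted p = 0.443). Of 23 genes of these transcription factors and of lysosomal nutrient sensing, *Lamtor5*, a scaffold for mTORC1 on the lysosome, was the only one to pass (24.8 to 28.5 CPM in MLIV and 28.4 CPM in that library, against 13.3 to 18.5 CPM; adjusted p = 0.0361) in edgeR, and it lost the call in 8 alternative fits. With DESeq2 3 members were higher and 1 lower, and without FD replicate 3 there were 7 higher and 1 lower.

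Subunits of the vacuolar proton pump, which acidifies the lysosome, were higher in 8 of 17 tested cases and none was lower; with library totals 4 were higher and 3 lower, and with DESeq2 8 and 2. The number was 3 without MLIV replicate 1 or 2, to 4 without MLIV replicate 3, WT replicate 1 or FD replicate 1 and to 5 without FD replicate 2. *Atp6v1d*, *Atp6v1c1* and *Atp6v1a*, of the cytosolic part, rose by 0.65 ± 0.11, 0.60 ± 0.10 and 0.88 ± 0.16. Of 45 autophagy genes 3 passed: *Gabarap* (0.89 ± 0.14) and *Map1lc3b* (0.58 ± 0.13), which coat autophagosomes, and the cargo receptor *Sqstm1* (0.62 ± 0.14). This share lay near the 4.09% of all genes that were higher; the count was 1 without FD replicate 1 or MLIV replicate 1 or 2 and 10 without FD replicate 3, and *Map1lc3b* and *Sqstm1* lost the call in 6 and 3 alternative fits. The list's median was 0.03 with TMM factors and -0.11 with library totals.

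The related mucolipins were nearly absent. *Mcoln2* had 18, 0 and 10 counts in MLIV and 6 in the library labelled WT replicate 3, against 37, 0, 0, 10 and 0, and *Mcoln3*, too low to test, had 0 to 23 counts in any library. None of 13 channels tested passed the adjusted p in edgeR (2 higher and 1 lower at an unadjusted p below 0.05); 1 did with DESeq2, and 2 without FD replicate 3. *P2rx4*, a lysosomal ATP-gated channel, was at 83.5, 76.5 and 92.1 CPM in MLIV and 90.5 CPM in the library labelled WT replicate 3, against 50.6 to 68.3 CPM, without overlap (adjusted p = 0.112; 0.0348 with DESeq2). *Trpm2*, a calcium channel gated by ADP-ribose, was at 117 to 161 CPM in MLIV and 145 CPM in that library, against 126 to 279 CPM (adjusted p = 0.229).

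Mucolipin-1 also conducts iron and zinc, and 5 of 16 iron genes rose and 1 fell. *Fth1*, the ferritin heavy chain that stores iron, was at 1550, 1469 and 1402 CPM in MLIV and 1634 CPM in the library labelled WT replicate 3, against 478 to 704 CPM (log2 fold change 1.34 ± 0.14, adjusted p = 0.000173). *Hmox1*, which frees iron from heme, and *Trf* (transferrin) rose by 1.09 ± 0.17 and 0.56 ± 0.10. *Slc25a37*, the mitochondrial iron importer mitoferrin-1, fell by 0.94 on the log2 scale (SE 0.14), with 48.8, 49.2 and 63.7 CPM in MLIV and 53.9 CPM in that library, against 85.8 to 118.3 CPM (adjusted p = 0.0024). The count of iron genes that rose was 2 without MLIV replicate 1 or 2 and 3 without MLIV replicate 3. Of 21 zinc genes, the metal-binding *Mt1* (1.23 ± 0.25) and the importer *Slc39a4* (1.43 ± 0.32) passed, neither of them without MLIV replicate 1 or 2. The shares that rose were 31.25% of iron and 9.52% of zinc genes, beside 4.09% of all genes. The median log2 fold changes of the iron and zinc lists were 0.26 and 0.07 with TMM factors. With library totals they were 0.11 and -0.08, so the zinc list as a whole barely moved.

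Among 21 genes of lipid uptake and efflux, *Apoe*, *Fabp5*, *Plin2* and *Lpl* rose. *Fabp5*, a fatty acid binding protein, was at 13.1, 10.04 and 12.4 CPM in MLIV and 15.3 CPM in the library labelled WT replicate 3, against 0.941 to 2.503 CPM (log2 fold change 2.80 ± 0.39, adjusted p = 0.00143). *Plin2*, a coat protein of lipid droplets, was at 41.2 to 45.8 CPM in MLIV and 43.7 CPM in that library, against 10.2 to 24.1 CPM. *Lpl*, lipoprotein lipase, was near the threshold (adjusted p = 0.0483), and lost the call in 11 alternative fits. The count was 8 without FD replicate 3 and 2 without MLIV replicate 1 or 2. None of 24 cholesterol synthesis and sensing genes passed, and 0 of 35 immediate-early and dissociation genes did in edgeR. At an unadjusted p below 0.05 there were 3 higher cholesterol genes and 4 higher and 3 lower immediate-early genes. DESeq2 called 0 cholesterol genes and 1 immediate-early gene, lower. Without FD replicate 3 the calls were 2 cholesterol genes, higher, and 3 immediate-early genes, lower, and with the replicate block 3 immediate-early genes were higher.

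Glycolytic genes and targets of the hypoxia factor HIF1 rose in 16 of 36 tested cases and none fell; without MLIV replicates 1 and 2 in turn the numbers were 8 and 9. *Pkm*, pyruvate kinase, was at 489, 402 and 384 CPM in MLIV and 446 CPM in the library labelled WT replicate 3, against 147, 202, 161, 157 and 140 CPM (log2 fold change 1.38 ± 0.13, adjusted p = 0.000122). *Hif1a*, the regulated subunit of the factor, was at 353 to 419 CPM in MLIV and 360 CPM in that library, against 131 to 198 CPM (1.26 ± 0.13). The enzymes *Tpi1* and *Aldoa* changed by 1.43 ± 0.15 and 1.196 ± 0.16. *Vegfa* (adjusted p = 0.044) lost the call in 8 alternative fits, and *Egln3*, an oxygen sensor under HIF1 control, did not pass in edgeR (6.01 to 11.5 CPM in MLIV and 6.32 CPM in that library, against 0 to 2.28 CPM; adjusted p = 0.144, 0.0399 with DESeq2). Of 28 NADPH oxidase and antioxidant genes 8 rose (4 without MLIV replicate 1 or 2, 16 without FD replicate 3), among them the peroxidase *Prdx1* (1.32 ± 0.15) and *Cyba*, the p22phox subunit (0.68 ± 0.12).

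Among 36 chemokines and their receptors *Cxcl16*, *Ccl5*, *Ccl9*, *Ccl3* and *Cxcr4* rose (1 without MLIV replicate 2). *Cxcl16*, a membrane-bound chemokine and scavenger receptor, had the second smallest p-value of all genes: 190.9, 202.3 and 189.6 CPM in MLIV and 185.7 CPM in the library labelled WT replicate 3, against 64.7, 69.7, 77.8, 70.8 and 77.0 CPM (log2 fold change 1.41 ± 0.10, adjusted p = 7.63e-05). Of 38 cytokines and receptors *Csf1* and *Igf1* passed, of 30 cell cycle genes *Pcna* and *Mcm3*, and of 29 genes of the unfolded protein and stress responses *Phgdh* and *Sdf2l1*. These shares lay near the 4.09% of all genes that were higher. Without FD replicate 3 the counts were 7, 8 and 7, and without MLIV replicate 1 they were 2, 0 and 0. The cell cycle list had a median log2 fold change of 0.64. In it 9 genes were higher and 0 lower at an unadjusted p below 0.05, and DESeq2 called 7 higher. Its sum was 663.2 to 693.9 CPM in MLIV and 589.6 CPM in the library labelled WT replicate 3, against 348.2 to 458.3 CPM. FD replicate 3 had no count for 11 of these 30 genes. *Il1b* was at 16.0, 9.92 and 5.76 CPM in MLIV and 7.62 CPM in that library, against 2.22 to 5.41 CPM (adjusted p = 0.0516, past 0.05 in 7 alternative fits). Of 22 complement genes 5 rose, including *C1qa* and *C1qb*, chains of the initiating complex; the count was 1 to 3 without WT replicate 1 or any MLIV library and 10 without FD replicate 3. Of 39 phagocytic, sialic acid and TREM receptors 11 rose and 2 fell, *Stab1* and *Siglece*; the number that rose was 4 or 5 without any one MLIV library or WT replicate 1 and 7 without WT replicate 2 or FD replicate 1 or 2.

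Ribosomal protein genes gave the longest list of upregulated genes. Of 77 tested 68 were higher and none lower, with a median log2 fold change of 1.36 and 68 separated 4 against 5. *Fau*, a fusion of a ubiquitin-like protein and a small-subunit protein, was at 642, 571 and 545 CPM in MLIV and 463 CPM in the library labelled WT replicate 3, against 183, 219, 214, 220 and 202 CPM (log2 fold change 1.48 ± 0.10, adjusted p = 7.63e-05), the smallest p of all genes. *Rps18*, *Rpl37* and *Rpl17* rose by 1.48 ± 0.11, 1.56 ± 0.12 and 1.39 ± 0.10. These genes have many processed copies in the genome, with which reads may have been shared. All ribosomal protein genes together took 2.14% to 2.44% of counts in the 4 libraries without *Mcoln1*, against 0.886% to 1.13% in the 5 with it. Ribosomal RNA took 6.81% to 7.71%, against 4.38% to 6.71%.

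Respiratory chain and ATP synthase genes rose in 30 of 78 tested cases and none fell, with a median of 0.67. The number was 12 to 18 without any one MLIV library, WT replicate 1 or FD replicate 1 or 2, 53 without FD replicate 3 and 17 with library totals. *Cox4i1*, *Uqcrh* and *Cox6c* changed by 1.14 ± 0.11, 1.14 ± 0.13 and 1.32 ± 0.16. Both lists hold short genes, with median exonic lengths of 703 and 708 bases. Over all genes the median log2 fold change was 0.15 in the shortest quartile by exonic length and -0.18 in the longest, and 7.53% of the shortest against 1.61% of the longest were higher. Without ribosomal protein and respiratory chain genes the median of the shortest quartile was 0.12. Disease-associated, interferon-stimulated and lysosomal lists had median lengths of 1586, 2470 and 2493 bases. The part of gene length in these list counts was not tested.

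Fewer genes fell, and most that fell furthest were weakly expressed. *Thsd1* (chromosome 8, 22227303 to 22261332), a thrombospondin-domain membrane protein, was at 1.27, 0.91 and 2.22 CPM in MLIV and 2.16 CPM in the library labelled WT replicate 3, against 7.44, 5.604, 4.51, 9.52 and 8.87 CPM (log2 fold change -2.31 ± 0.48, adjusted p = 0.0167; up to 0.11 without FD replicate 2 or MLIV replicate 1 or 2). *Ctnnd2*, δ-catenin, was at 8.84, 11.7 and 7.26 CPM in MLIV and 12.2 CPM in that library, against 32.8, 22.2, 48.2, 38.8 and 74.8 CPM (log2 fold change -2.24 ± 0.36, adjusted p = 0.00497), and it kept the call in every alternative fit other than those of all 9 libraries as labelled. Neither gene overlapped between the 4 and the 5 libraries.

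For 6 others all FD libraries lay above both WT libraries, and WT replicate 1 lay above WT replicate 2. For *Gm3002* and *Akap3*, WT replicate 2 was only just above the highest library without *Mcoln1*. *Adhfe1*, an iron-dependent alcohol dehydrogenase of mitochondria, was at 0.806, 0.847 and 0.939 CPM in MLIV and 0.455 CPM in the library labelled WT replicate 3, against 3.49 and 1.84 CPM in WT replicates 1 and 2 and 17.3, 9.98 and 29.1 CPM in FD. *2610507I01Rik* was at 2.28 to 2.86 CPM in MLIV and 3.93 CPM in that library, against 5.86 and 4.79 CPM in WT and 24.98 to 30.6 CPM in FD. *Gm3002* was at 0.0576 to 0.563 CPM in MLIV and 0.512 CPM in that library, against 8.64 and 0.642 CPM in WT and 13.1 to 13.6 CPM in FD. *Akap3*, an A-kinase anchor protein, was at 0.23 to 0.565 CPM in MLIV and 0.882 CPM in that library, against 3.46 and 0.934 CPM in WT and 4.63 to 12.03 CPM in FD. *Trim43b* was listed at 0 counts in all MLIV libraries and at 0.284 CPM in the library labelled WT replicate 3, against 1.80 and 0.0584 CPM in WT and 7.21 to 15.2 CPM in FD, so no fold change is given. *Lama3*, a laminin chain, was at 0, 0.188 and 0.125 CPM in MLIV and 0.341 CPM in that library, against 3.76 and 0.0584 CPM in WT and 8.51 to 13.3 CPM in FD, and WT replicate 2 lay among the libraries without *Mcoln1* for both genes. The highest adjusted p over the alternative fits was between 0.134 and 0.213 for these 6 genes. *2610042L04Rik* and *AI429214* completed the 10 largest decreases, with log2 fold changes of -1.98 and -1.91, and neither passed without any one MLIV library.

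*Mcoln1* lies on chromosome 8, and genes near it were counted apart from the rest. Within 10 Mb, 3 of 64 tested genes passed at any fold (4.69%), against 4.86% of the 720 genes elsewhere on that chromosome and 5.44% of all autosomal genes. *Pet100*, a chaperone of cytochrome c oxidase (3621551 to 3624235), and *Lamp1* rose, by 0.84 ± 0.16 and 1.06 ± 0.16. *Insr*, the insulin receptor (3150922 to 3279617), was at 98.0 to 108.6 CPM in MLIV and 108.3 CPM in the library labelled WT replicate 3, against 132.6, 128.5, 149.5, 156.8 and 175.8 CPM (log2 fold change -0.56 ± 0.12, adjusted p = 0.0208; up to 0.153 without FD replicate 1 or single MLIV libraries). Without single libraries the number within 10 Mb was 1 to 10.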

How the data were processed

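RNA sequencing of sorted mouse microglia gave 9 libraries, with 3 to each of the labels MLIV, FD and WT. The authors made libraries with a stranded low-input total RNA kit after depletion of ribosomal cDNA, used STAR 2.5.1 for alignment (mm10), and counted by featureCounts 1.4.6-p3. The header gives a single command for 21 libraries, with no option for strand or pairs, so the count of a gene can include antisense reads. The deposited values are raw counts for 24421 genes. The authors' tables of fold changes and p-values for each mutant against WT were not used.

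The members, gene lists and tests were chosen with earlier results of these data known. Genes passing edgeR's filterByExpr (15165, of which 14662 were autosomal and not *Mcoln1*) were scaled by TMM and fitted with a robust quasi-likelihood model (edgeR 4.0.16, R 4.3.3), 3 MLIV against 5 libraries pooled as 1 mean. Calls used a Benjamini-Hochberg adjusted p below 0.05 over all tested genes, with an absolute log2 fold change above 1 or, for lists, any fold. Standard errors were derived from the F statistic (fold change on the log2 scale over the root of F). The 4 against 5 description used log2(CPM + 0.5). The fit was tested on simulated data.

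Genes named are *Mcoln1*, *Mcoln2*, *Mcoln3*, *Gla*, the 10 highest and 10 lowest fold changes past the adjusted p, the 4 members of every list that had the lowest p-values, genes the study names and genes passing within 10 Mb of *Mcoln1*. Others, such as *P2ry12*, *Cx3cr1*, *Tfeb*, *Mlph*, *Xist* and the members listed as not passing, were added after their values were seen. Of 1026 list symbols 7 were not in the table. Alternatives were DESeq2 1.42.0, RLE factors, library totals, other count filters, separate WT and FD means, the replicate number as a block, all 9 libraries as labelled, no ribosomal genes and the removal of each library; DESeq2 on 9 libraries and the removal of WT replicate 1 with FD replicate 3 were added after seeing the data. No 2 libraries were duplicates (lowest chi-square per gene of 36 pairs 25.9).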

Additional observations from a re-analysis of the deposited data

Results flagged for a closer look

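Among the genes named, 222 sets of values (each gene in the 4 libraries without and the 5 with *Mcoln1*) were examined for a library set apart from the rest of its side, and 13 had one (5.86%); chance flags about 1 in 20. In FD replicate 3, *C3* (0.739 CPM, against 6.69 to 14.2 CPM in the other libraries with *Mcoln1*) and *Ifit3* (3.16 CPM, against 12.7 to 19.02 CPM) were low and *AI429214* was high (33.7 CPM, against 10.2 to 14.4 CPM). In WT replicate 1, *P2rx4* (50.6 CPM, against 64.7 to 68.3 CPM) and *Atp6v1d* (52.4 CPM, against 64.2 to 66.3 CPM) were low, and in WT replicate 2 *Gm3002* was at 0.642 CPM, against 8.64 to 13.6 CPM. On the side without *Mcoln1*, *Trim43b* was at 0.284 CPM in the library labelled WT replicate 3 and at 0 in MLIV. *Ctss* (11790 CPM) and *Rpl17* (453 CPM) were highest in MLIV replicate 1, *Lpl* was highest (74.2 CPM) and *Bnip3* (26.4 CPM) and *Cyba* (209.9 CPM) lowest in MLIV replicate 2, and *Mt1* was lowest in MLIV replicate 3 (38.0 CPM).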

How the results depend on the processing

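The 272 calls became 447 with DESeq2 (288 higher, 159 lower; 268 shared), 274 with RLE factors, 285 with library totals (211 shared), 276 with no filter, 307 with at least 10 counts in every library, 297 with separate WT and FD means, 201 without ribosomal genes and 798 with no fold threshold. With all 9 libraries as labelled (MLIV against WT and FD pooled) edgeR called 0 and DESeq2 102, of which 82 were shared with the 272. Leaving out 1 library gave 179 to 418, and leaving out WT replicate 1 with FD replicate 3 gave 416 (added after seeing the data). The replicate number as a block gave 394. Deviations of same-numbered libraries from their group means correlated at -0.15 to 0.07 (0 of 5 over 0.1). With so few libraries to a group these correlations constrain one another, and they cannot decide whether the numbers pair the samples. Separated genes (515) became 2188 with no fold threshold and 502 to 701 without single libraries. The library labelled WT replicate 3 lay beyond the 5 for 96.7% of called genes, 86.8% with DESeq2, 91.3% with separate means, 93.7% with the block, 81.8% to 98.3% without single libraries and 80.1% without WT replicate 1 and FD replicate 3 together. List members that rose (265) became 156 to 386 without single libraries, 0 as labelled in edgeR and 81 as labelled in DESeq2. Genes passing near *Mcoln1* (3) became 8 with DESeq2, 6 with library totals, 5 with at least 10 counts in every library, 8 with the block, 0 and 1 as labelled in edgeR and DESeq2, 1 to 10 without single libraries and 8 without WT replicate 1 and FD replicate 3. Of 97 named genes past the adjusted p, 53 kept it in every alternative other than those as labelled, and 44 lost it in at least 1, most often without MLIV replicate 1 (39) or 2 (40). As labelled their adjusted p was 0.299 to 0.584 in edgeR. *Mcoln2* (37 counts or fewer) had a log2 fold change of -0.35, -1.14 to 0.25 without single libraries, the positive value without MLIV replicate 2. FD replicate 3, with a count for the fewest genes, limits what can be said of low genes. DESeq2 as labelled and the joint removal were not planned.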
